A study of Homo sapiens with 72 samples.

Results

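Triptolide, a plant diterpenoid, binds the XPB helicase of the general transcription factor TFIIH, blocks initiation by RNA polymerase II and leads to loss of the polymerase's large subunit. When initiation is blocked, mRNAs that decay quickly are lost first and stable mRNAs last. Among 19550 protein-coding genes of U2OS cells, a human osteosarcoma line, 29 had a biphasic pattern after 12 h, with a level above that of untreated cells at the lowest dose and below it at the middle dose. They included the nuclear protein CSRNP2, the transcriptional repressor SNAI1, and 3 enzymes linked to fatty acid oxidation, CPT2, EHHADH and MLYCD.

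The members were chosen by their measured levels, as CPM (a gene's expected count over the sum of its library, times 1e+06). A member had at least 5 CPM and at least 2.5 times the DMSO mean at 100 nM triptolide (wells 1 and 3), and at most 0.5 times the DMSO mean at 1000 nM triptolide (3 wells). The DMSO mean was taken over 17 wells. Members of the FOS, JUN, EGR, IER, KLF, DUSP, NR4A, ZNF and histone gene families were left out by symbol. Levels at 100 nM and 1000 nM triptolide against DMSO are therefore a description and carry no test. The files list 60371 genes in all.

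The series holds 72 wells of population RNA-seq, in which poly(A) mRNA of a whole well was made into 1 library. The vehicle DMSO was given to 18 wells, and 6 compounds were each given at 100 nM, 1000 nM and 10000 nM, to 3 wells per dose. Besides triptolide, the compounds were homoharringtonine, which blocks the ribosome early in peptide elongation, the JNK inhibitor pyrazolanthrone, the tyrosine kinase inhibitor nilotinib, the glucosidase inhibitor miglitol and the AKT inhibitor MK-2206. All wells carried U2OS cells of 1 line with no genetic change stated, and wells without compound received DMSO for the same time. VIM, COL1A1, SPARC and FN1, markers of mesenchymal and bone cells, were at 1465 to 2283 CPM in DMSO and RUNX2 at 7.85 CPM, whereas COL1A2 was near 0 at 0.148 CPM. Of the markers of other cell types, PTPRC, CD3E and ALB were below 0.1 CPM, but the keratins KRT8 and KRT18 were at 219 and 345 CPM.

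Depth was uneven where it bears on the members. Library sums ran from 0.0708 to 68.3 mil counts (mil, 1e+06) with a median of 38.4 mil. Triptolide 100 nM well 2 held 70767 counts and DMSO replicate 10 held 460014, and neither entered the limits or the comparisons below. The 2 wells used at 100 nM held 34.5 and 10.5 mil counts, and the 3 wells at 1000 nM held 9.63, 10.7 and 57.4 mil. Since each value is a share of its library, fewer cells and less mRNA per cell cannot be told apart from these values, and a gene that keeps its CPM in a well with less mRNA has also lost transcripts. The labels do not say that wells came from separate cultures, so the p-values given here measure the spread between wells, which may be technical.

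The combination of both limits was uncommon among genes that were high at the low dose. Of 9468 protein-coding genes with at least 5 CPM at 100 nM, 126 (1.33%) were at 2.5 times DMSO or more, whereas 3440 (36.3%) were at 0.5 times DMSO or less at 1000 nM. Of the 126 genes, 30 (23.8%) met the 1000 nM limit, and 65 were still above DMSO at that dose. The one gene of the 30 that was left out by its symbol is NR4A2, an orphan nuclear receptor of the immediate early class. Of the 657 genes left out by symbol, 4 met the limits at 100 nM.

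**Figure D1:**
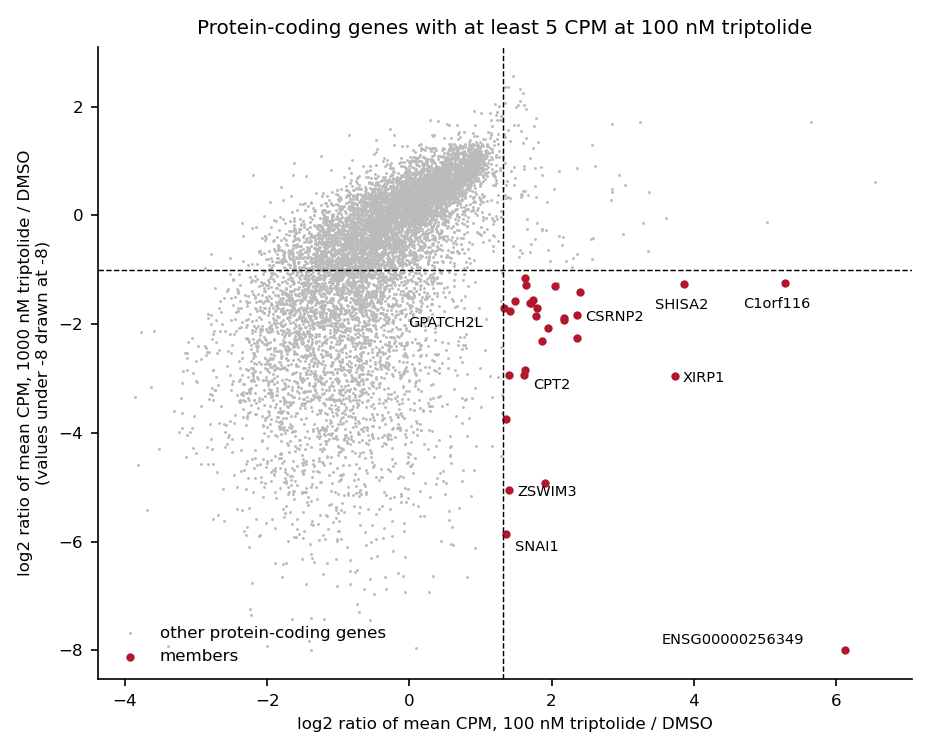
Each point is a protein-coding gene with at least 5 CPM at 100 nM triptolide (9468 genes), with the log2 ratio of its mean CPM to DMSO at 100 nM on the x axis and at 1000 nM on the y axis, values under -8 drawn at -8. Dashed lines are the limits of 2.5 and 0.5 times DMSO, and the 29 members (red) fill the lower right field together with NR4A2, left out by symbol and drawn grey.

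The limits cut a continuous spread. GPATCH2L was just inside at 2.51 times DMSO at 100 nM and DRP2 just outside at 2.48 times. FAM120C was just inside at 0.453 times DMSO at 1000 nM, and NXF1, an mRNA export receptor, was just outside at 0.502 times, with 100 CPM in DMSO, 370 CPM at 100 nM and 50.2 CPM at 1000 nM. COL20A1 was just inside the level limit at 5.29 CPM and CCM2L just outside at 4.85 CPM. Membership also moved with the scale: with library sizes scaled by TMM, 34 genes met the limits and 23 of them were members, and with TPM in place of CPM 18 genes did, of which 13 were members. The level limit was then 5 TPM, which some members missed while keeping the ratio. XIRP1 was at 1.70 and 1.85 TPM and MLYCD at 0.78 and 0.61 TPM at 100 nM, 11.6 and 3.05 times DMSO. GPATCH2L and SNAI1 reached 5 TPM but missed the ratio.

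Start site sequences are shown for 3 members, CSRNP2 and SHISA2, which shared a box of the TATA type at the same distance from the RefSeq start, and CPT2, which had none. They are the 250 bases before the RefSeq start on the gene's strand (GRCh38.p14), CSRNP2 at chr12:51083597-51083846 (minus strand), SHISA2 at chr13:26052017-26052266 (minus strand) and CPT2 at chr1:53196574-53196823 (plus strand). Capitals mark TATAAG in the first pair and GGGCGG, a GC box, in CPT2.
CSRNP2: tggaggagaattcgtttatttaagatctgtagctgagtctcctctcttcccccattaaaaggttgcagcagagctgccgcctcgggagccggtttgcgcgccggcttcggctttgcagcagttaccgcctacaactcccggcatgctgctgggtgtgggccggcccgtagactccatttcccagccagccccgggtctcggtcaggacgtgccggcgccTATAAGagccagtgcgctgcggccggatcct
SHISA2: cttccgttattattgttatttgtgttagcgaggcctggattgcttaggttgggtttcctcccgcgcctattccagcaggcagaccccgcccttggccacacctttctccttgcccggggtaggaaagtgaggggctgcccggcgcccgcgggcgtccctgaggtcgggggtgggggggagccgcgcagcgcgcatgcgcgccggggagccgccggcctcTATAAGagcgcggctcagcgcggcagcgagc
CPT2: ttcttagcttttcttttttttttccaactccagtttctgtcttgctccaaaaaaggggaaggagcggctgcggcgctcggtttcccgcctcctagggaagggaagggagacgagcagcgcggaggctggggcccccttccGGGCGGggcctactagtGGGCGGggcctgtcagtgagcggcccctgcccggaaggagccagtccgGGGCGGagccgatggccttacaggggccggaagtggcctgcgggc
In CSRNP2 and SHISA2 the box begins at position -31 from the RefSeq start. The GENCODE span of CSRNP2 reaches 51083664, inside the window shown, so its box lies within that span. Of 27305 RefSeq promoters, 268 (0.982%) held TATAAG on the gene strand between -36 and -26, and these were the only 2 among the 19 members with a promoter sequence. CPT2 carried 3 GC boxes, the nearest at -45. TATAAG was added to the search after these sequences had been read.

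RefSeq promoters (300 bases, 250 of them before the start) were found for 19 members, and those of the others, among them C11orf96, COL20A1, EHHADH, ENSG00000256349, HOXB6, PAQR8, SNAI1, TSPEAR and ZSWIM4, were not analysed here. On either strand, TATAAA stood in 1 of 19 (CEMIP) against 12.0% of all promoters, and TATAAG in 2 of 19 against 5.68%. The AP-1 site TGACTCA stood in 3 of 19 (C1orf116, PTAFR and XIRP1) against 4.92%. GGGCGG stood in 12 of 19 against 44.6% and CCAAT in 10 of 19 against 35.7%. The CArG box, to which serum response factor binds, stood in CPT2 alone against 1.29%, and neither the cAMP element TGACGTCA (1.98%) nor the E-box CACGTG (7.43%) was present in these 19 windows. The median GC content was 63.3% in the members' promoters and 58.3% in all. The set of all promoters, here and for the TATAAG position above, was not matched to the members by gene type or level. Whether the differences in GC content and in the share with a motif reflect this was not tested.

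CSRNP2 (chromosome 12, 51061205 to 51083664) ranged from 35.9 to 44.8 CPM in DMSO, with a median of 40.0 CPM. It was at 210 and 201 CPM at 100 nM, at 13.4, 9.05 and 11.5 CPM at 1000 nM and at 3.60, 3.42 and 3.29 CPM at 10000 nM. CSRNP2 thus stood lower at each step above 100 nM, with no overlap between doses. Its paralog CSRNP1, an immediate early gene, was not high at 100 nM: it went from 115 CPM in DMSO to 76.9, 2.73 and 1.22 CPM at the 3 doses. FAM120C also differed from its paralogs. It had means of 7.02, 21.7, 3.18 and 2.21 CPM in DMSO and at the 3 doses, against 35.4, 39.6, 3.76 and 2.81 CPM for FAM120B and 229, 339, 353 and 350 CPM for FAM120A.

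SNAI1 (chromosome 20, 49982980 to 49988886), a zinc finger repressor that drives epithelial-mesenchymal transition and has a short-lived mRNA, had the widest range. Its DMSO wells ranged from 10.4 to 18.5 CPM with a median of 15.02 CPM. It was at 34.1 and 42.0 CPM at 100 nM, at 0, 0.466 and 0.296 CPM at 1000 nM and at 0.0864, 0.0777 and 0.0549 CPM at 10000 nM. The last 3 values are at or under what 3 counts are worth in those wells (0.0777 to 0.0864 CPM), and the 0 at 1000 nM allows up to 0.312 CPM. SNAI1 was close to the limit at 100 nM, at 2.57 times DMSO in CPM and 2.21 times in TPM. It left the set with all 18 DMSO wells, with all 3 wells at 100 nM or without well 3 at that dose. Its paralog SNAI2 was at 5.496 CPM in DMSO and already at 1.81 CPM at 100 nM. SNAI1 was 1 of 26 genes of a list of immediate early and other short-lived transcription factors. The list held none of the families left out by symbol, and 18 of its 26 genes had 5 CPM or more at 100 nM. Of these 18 genes, 16 were at 0.5 times DMSO or less at 1000 nM and only SNAI1 and MAFF were at 2.5 times DMSO at 100 nM. At 10000 nM triptolide 24 of the 26 genes fell and none rose, by the test described below, where 30.2% of all genes tested fell and 16.1% rose. At 100, 1000 and 10000 nM homoharringtonine 11, 13 and 8 of the 26 rose, against 15.1%, 21.6% and 23.6% of all genes, and 1, 1 and 4 fell, against 19.8%, 20.9% and 23.4%. MAFF was at 21.0 CPM in DMSO, 61.9 CPM at 100 nM and 13.5 CPM at 1000 nM, above the lower limit.

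The other 7 lists of roles held no member. They covered feedback inhibitors of signalling (20 genes), mRNA decay and BTG/TOB factors (9), cell cycle and p53 response (21), the BCL2 family (9), elongation and snRNA transcription (21), secreted cytokines and growth factors (21) and TFIIH subunits (10). Among their genes with 5 CPM or more and at 2.5 times DMSO or more at 100 nM, the one with the highest level was POLR2A. It encodes the large subunit of RNA polymerase II. POLR2A was at 298 CPM in DMSO, 1752 and 1761 CPM in the 2 wells at 100 nM, 220 CPM at 1000 nM and 96.3 CPM at 10000 nM, so that it missed the 1000 nM limit at 0.741 times DMSO. The other 3 were PMAIP1, a BH3-only protein, at 0.680 times DMSO at 1000 nM, EREG, an EGF family ligand, at 0.759 times, and PHLDA2, which stayed above DMSO at 1.29 times.

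**Figure D2:**
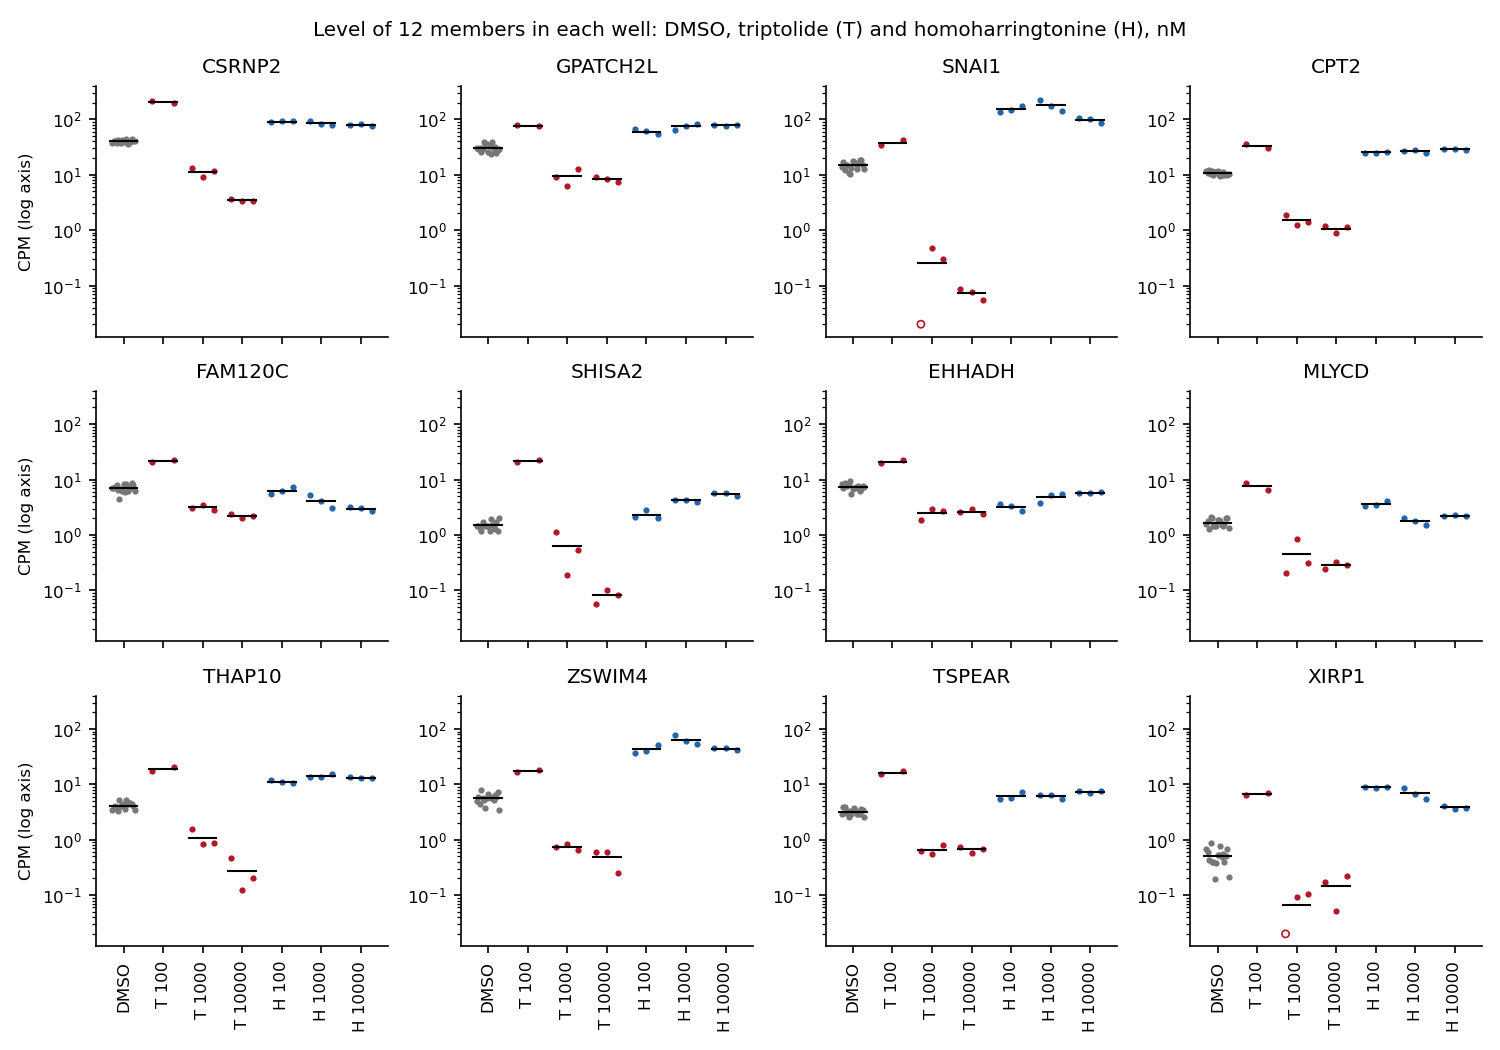
CPM (log axis) of 12 members in each well of DMSO (17 wells, grey), triptolide (T, red) and homoharringtonine (H, blue) at each dose in nM. Bars are means and open circles at the bottom are wells at 0 CPM. At 100 nM triptolide (2 wells) each member lies above its DMSO wells, at 1000 nM and 10000 nM (3 wells each) below or, for XIRP1 at 10000 nM, overlapping with the lowest.

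CPT2, EHHADH and MLYCD act in or on fatty acid oxidation. CPT2 rebuilds long-chain acyl-CoA from acylcarnitine inside mitochondria, EHHADH is the bifunctional enzyme of peroxisomal beta-oxidation, and MLYCD removes malonyl-CoA, which inhibits carnitine palmitoyltransferase 1. CPT2 ranged from 9.56 to 12.4 CPM in DMSO and was at 35.7 and 30.5 CPM at 100 nM, at 1.86, 1.22 and 1.42 CPM at 1000 nM and at 1.18, 0.899 and 1.12 CPM at 10000 nM. EHHADH ranged from 5.58 to 9.35 CPM in DMSO and was at 19.5 and 22.2 CPM, then 1.87, 2.89 and 2.75 CPM, then 2.56, 2.90 and 2.39 CPM. MLYCD ranged from 1.25 to 2.07 CPM in DMSO and was at 8.56 and 6.58 CPM, then 0.208, 0.840 and 0.314 CPM, then 0.241, 0.319 and 0.288 CPM. For each of the 3 enzymes the wells at 100 nM were above all DMSO wells and those at 1000 nM and 10000 nM below all of them.

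The rest of the pathway did not share the pattern. In a list of 26 fatty acid oxidation genes, drawn up after the members were known, only these 3 were at 2.5 times DMSO at 100 nM with 5 CPM or more, and 4 of 20 genes with 5 CPM at 100 nM were at 0.5 times DMSO or less at 1000 nM, the other being CPT1B at 0.424 times. At 10000 nM triptolide 6 of the 26 genes rose and 3 fell, by the same test, where 16.1% of all genes rose and 30.2% fell. At 100, 1000 and 10000 nM homoharringtonine 2, 2 and 3 of the 26 rose and 4, 1 and 2 fell, beside the shares of all genes given for the transcription factors. The mitochondrial enzymes HADHA and ACADM were at 1.22 and 1.02 times DMSO at 100 nM and at 1.11 and 1.85 times at 1000 nM. CPT1A, the liver form of the enzyme before CPT2, was at 1.93 CPM in DMSO and 0.993 CPM at 100 nM. The annotated span of MLYCD overlaps that of OSGIN1 on the same strand (20135 bases in common), and OSGIN1 went from 51.5 CPM in DMSO to 10.8, 1.23 and 0.701 CPM, so it was not high at 100 nM.

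**Figure D3:**
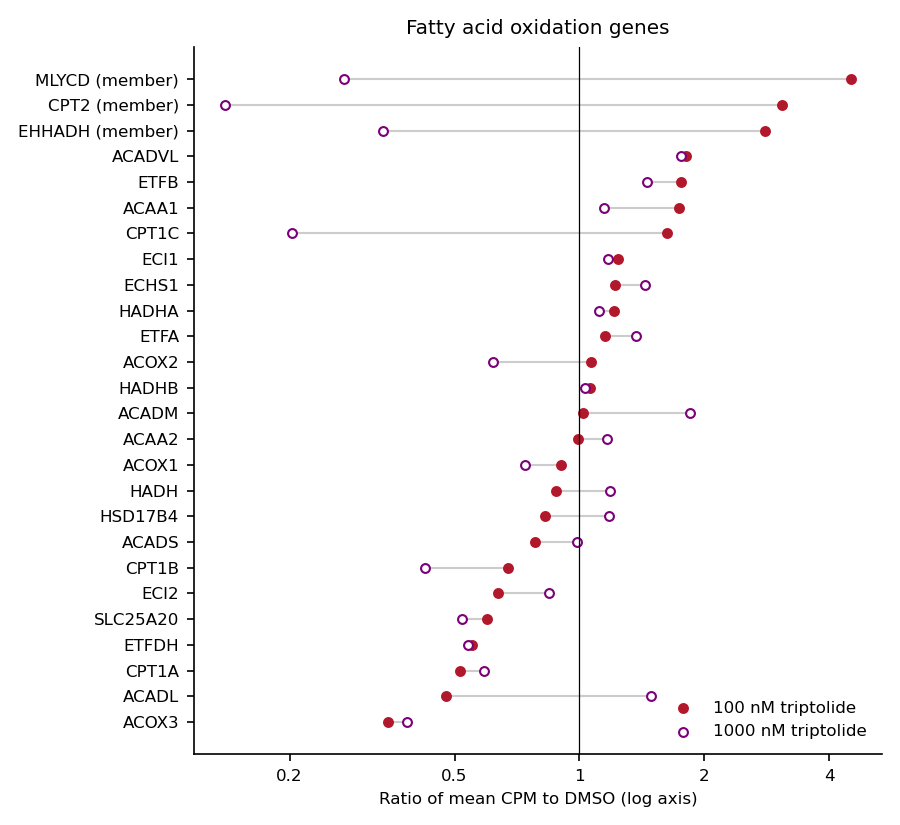
Ratio of mean CPM to DMSO (log axis) for 26 fatty acid oxidation genes at 100 nM (filled, 2 wells) and 1000 nM (open, 3 wells) triptolide, ordered by the 100 nM ratio. MLYCD, CPT2 and EHHADH stand at 4.51, 3.08 and 2.80 at 100 nM and at 0.271, 0.140 and 0.337 at 1000 nM, and the next gene, ACADVL, is at 1.80 and 1.76.

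Several members were nearly silent before treatment, and 21 of 29 had a DMSO mean under 5 CPM. SHISA2, which retains FGF and WNT receptors in the endoplasmic reticulum, had a DMSO median of 1.45 CPM with a highest well of 2.00 CPM. It was at 20.7 and 22.5 CPM at 100 nM, 14.5 times the DMSO mean, at 1.14, 0.187 and 0.540 CPM at 1000 nM and at 0.0576, 0.104 and 0.0823 CPM at 10000 nM. XIRP1, an actin-binding protein of striated muscle, had a DMSO median of 0.517 CPM and was at 6.38 and 7.13 CPM at 100 nM (13.3 times), and at 0 to 0.105 CPM at 1000 nM. C1orf116 had a DMSO median of 0.169 CPM and was at 8.49 and 6.47 CPM at 100 nM (38.9 times), then at 0.104, 0 and 0.139 CPM, which overlapped with DMSO. The largest ratio, 69.6 times, belonged to ENSG00000256349, a readthrough locus that overlaps BBS1 and DPP3 on the same strand, and it rested on 1 well: the level was 0.675 CPM in well 1 and 14.5 CPM in well 3. DPP3 and BBS1 themselves were at 112 and 17.6 CPM in DMSO and at 154 and 23.1 CPM at 100 nM.

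The members at intermediate levels covered several roles. THAP10, a THAP domain protein, went from a DMSO mean of 4.15 CPM to 17.1 and 20.3 CPM at 100 nM, then to means of 1.09 and 0.269 CPM. The SWIM zinc finger proteins ZSWIM4 and ZSWIM3 had DMSO means of 5.65 and 4.06 CPM, were at 16.6 and 17.98 CPM and at 9.85 and 11.6 CPM at 100 nM, and had means of 0.743 and 0.122 CPM at 1000 nM. ZSWIM1, a paralog, was at 10.99 CPM in DMSO and at 4.91 and 0.0465 CPM at 100 nM and 1000 nM. TSPEAR had a DMSO mean of 3.20 CPM and was at 15.1 and 17.6 CPM at 100 nM. C11orf96, the only member with 1 exon, was at 10.9 and 6.21 CPM at 100 nM against 2.28 CPM in DMSO and was counted in 1 of 3 wells at 1000 nM, at 0.227 CPM.

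Receptors, enzymes and secreted proteins made up most of the rest. PTAFR, the receptor of platelet-activating factor, was at 12.7 and 7.04 CPM at 100 nM against a highest DMSO well of 4.41 CPM, and PAQR8, a membrane progestin receptor, was at 11.4 and 10.2 CPM against 4.19 CPM. KDM4D, a histone H3 lysine 9 demethylase, was at 5.71 and 7.13 CPM against 2.51 CPM, and ACER2, an alkaline ceramidase of the Golgi, at 9.56 and 5.80 CPM against 3.07 CPM. These 4 genes were lower than every DMSO well in all wells at 1000 nM and 10000 nM. CEMIP, which takes part in hyaluronan breakdown, was at 8.41 and 7.99 CPM, the sulfotransferase CHST8 at 5.80 and 6.28 CPM, neuroserpin (SERPINI1) at 5.19 and 6.18 CPM and the collagen COL20A1 at 6.49 and 4.09 CPM. SERPINI1 and COL20A1 overlapped with DMSO at 1000 nM, as did FBXO48, an F-box protein. HOXB6, NUTM2B and C2orf76 complete the set, and NUTM2B has near-identical copies in the genome between which RSEM splits reads, so that its level is uncertain.

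Over the 29 members, both wells at 100 nM were above every DMSO well in 28, the exception being ENSG00000256349. The ratio to DMSO at 100 nM ran from 2.51 to 69.6 with a median of 3.45, and that at 1000 nM from 0 to 0.453 with a median of 0.278. All wells at 1000 nM were below every DMSO well in 24 members. Both counts use the wells that chose the members, so they describe the choice, and no share over all genes was taken. The 2 wells at 100 nM lay within 1.5 times of each other in 24 members and within 2 times in 28. The shallow well 2 at 100 nM, which no limit used, held 62 counts of the members among 70767, and 20 of 29 members were counted in it.

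**Figure D4:**
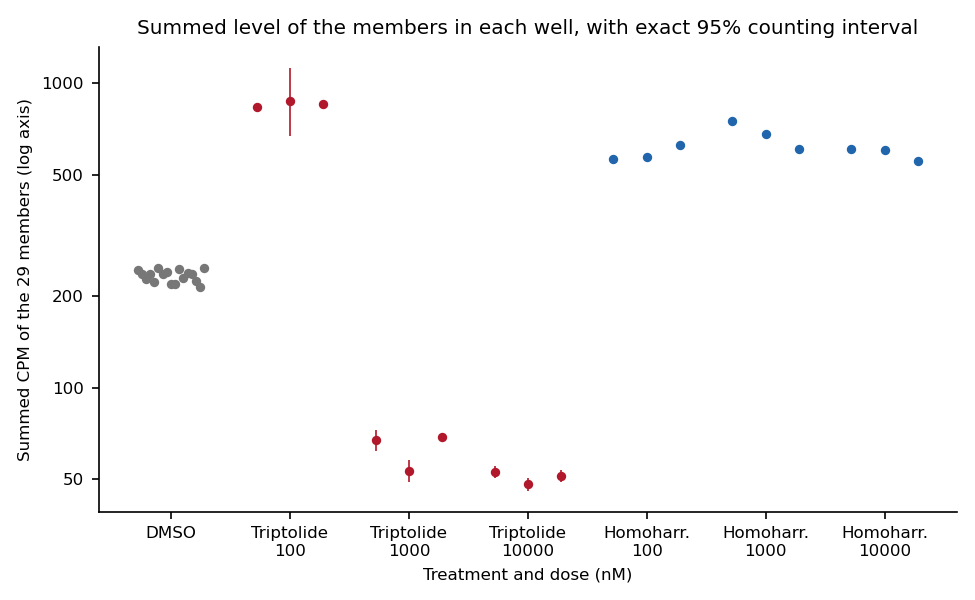
Summed CPM of the 29 members (log axis) in each well by treatment and dose in nM, with exact 95% binomial intervals for counting error. The DMSO wells sit between 214 and 248, triptolide at 836, 876 and 854 at 100 nM and between 48.1 and 68.7 at higher doses, and homoharringtonine between 557 and 755. The sum is weighted to the most abundant members.

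As a description, the members had few exons. They had a median of 5 exons in their annotated canonical transcript against 10 for the 9468 protein-coding genes with 5 CPM at 100 nM, and 31.0% had 3 exons or fewer against 10.6%. The 126 genes high at 100 nM had a median of 6 exons, and 24.6% had 3 or fewer. The median span on the genome was similar, at 36812 bases against 34051 bases. Another annotated gene overlapped 14 members, on the same strand in 8, and in 5 of these (TSPEAR, PAQR8, HOXB6, MLYCD and ENSG00000256349) it was protein-coding. The strand setting of the counting was not given in the sources used here, so reads of members and opposite genes could not be told apart, as for THAP10 and LRRC49, which was at 18.7 CPM in DMSO and 4.78 CPM at 100 nM.

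For GPATCH2L, a G-patch domain protein, the level at 100 nM depended on the transcript measure. It was at 23.5 to 39.4 CPM in DMSO, at 78.2 and 75.1 CPM at 100 nM, and at 9.24, 6.34 and 12.6 CPM at 1000 nM. The abundance-weighted transcript length that RSEM gave was 2279 to 3812 bases over the DMSO wells and 4297 and 6335 bases at 100 nM. In TPM, which divides by that length, GPATCH2L was at 15.6 ± 2.36 (SD, n = 17) in DMSO and at 22.1 and 14.6 at 100 nM, 1.18 times DMSO. GPATCH2L was the only member whose length at 100 nM lay above all DMSO wells, and none lay below, against 3.61% and 8.12% of expressed genes.

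Levels at 10000 nM triptolide had no part in the choice of members, although the DMSO mean did. The limit at the middle dose of the same compound still favours a fall here, so the counts are not independent of the choice. The shares below are over all genes tested, and none was taken over the other genes low at the middle dose. Against the 17 DMSO wells, 21 of 28 members tested fell (edgeR quasi-likelihood test, adjusted p under 0.05 and log2 fold change below -1) and none rose. Of all 18509 genes tested, 30.2% were called lower and 16.1% higher. C1orf116 did not pass the filter on low counts. The median log2 fold change was -1.69 over these 28 members and -0.17 over all genes. The log2 fold change was -7.09 for SNAI1 (SE 0.30, adjusted p = 1.05e-15), -4.80 for C11orf96 (SE 0.36, adjusted p = 2.6e-11) and -4.55 for ZSWIM3 (SE 0.34, adjusted p = 2.77e-11). All 3 were near 0 at this dose, so the size of these folds depends on the small count edgeR adds. SHISA2, THAP10 and CSRNP2 were at -3.62 (SE 0.27), -3.42 (SE 0.27) and -3.02 (SE 0.10), and CPT2 at -2.80 (SE 0.14, adjusted p = 1.78e-14).

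The 7 members tested at 10000 nM and not called were EHHADH, CEMIP, COL20A1, NUTM2B, C2orf76, ACER2 and ENSG00000256349. EHHADH was just short of the fold limit (-0.98, SE 0.14), and ACER2 was the nearest to DMSO (-0.26, SE 0.19) and the only member above 0.5 times the DMSO mean in CPM, at 0.579 times. Between 1000 nM and 10000 nM the mean CPM stayed equal or went down in 20 of 29 members. The wells at 1000 nM chose the members and no share over all genes was taken, so this count is no result about them. These fold changes are on the TMM scale, and without scaling factors the median of all genes at 10000 nM lay 0.53 lower on the log2 scale, which is why ratios of CPM are further from DMSO. GPATCH2L, for example, was at 0.270 times DMSO in CPM and had a log2 fold change of -1.36 (SE 0.14) in the fit. Members called lower numbered 20 with RLE size factors and 26 without scaling factors. With libraries scaled to the 13 mitochondrial mRNAs all 28 were called lower, and the median of all genes moved by -2.77 on the log2 scale. The 7 missing calls and the distance of ACER2 from DMSO thus depended on the scale. Leaving out 1 well ended the call of FBXO48 (-0.87 without well 3, adjusted p = 0.0674) and of XIRP1 (-0.81 without well 2, adjusted p = 0.123), and PAQR8 (-1.04, SE 0.17) was past the fold limit with TMM but not with RLE size factors (-0.92).

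Many members were higher with homoharringtonine, which acts on translation, and few were lower. Against DMSO, 14 of 29 members rose at 100 nM, 15 at 1000 nM and 16 at 10000 nM, where 15.1%, 21.6% and 23.6% of all genes tested were called higher. The corresponding lower calls were 2, 1 and 3 members, against 19.8%, 20.9% and 23.4% of all genes. The median log2 fold change over the members was 1.14, 1.21 and 1.19 at the 3 doses, and -0.06, -0.02 and -0.05 over all genes. These comparisons and that of triptolide share the DMSO wells with each other and with the limits. In all, 12 of 29 members rose at all 3 doses and 18 at 1 dose or more, against 11.1% and 25.6% of the genes tested at all 3. Of the 28 members also tested with 10000 nM triptolide, 10 rose at all 3 doses and fell with triptolide, against 5.33% of genes. The choice of members at 1000 nM triptolide favours the fall. TSPEAR was the nearest of the 12 to the fold limit and at 100 nM was within it without well 3 (0.98). C1orf116, also among the 12, had means of 0.192 CPM in DMSO and 0.600, 0.507 and 0.421 CPM with homoharringtonine. It failed the filter on low counts with 10000 nM triptolide against the same DMSO wells. It was not tested when 10 counts were required in every library, and its call at 10000 nM homoharringtonine ended with the replicate block (adjusted p = 0.0547).

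The largest rises with homoharringtonine were in members that were low or moderate in DMSO. CEMIP was at 59.1, 58.9 and 67.4 CPM at 100 nM homoharringtonine against at most 4.22 CPM in DMSO (log2 fold change 4.90, SE 0.15, adjusted p = 1.29e-17). XIRP1 was at 8.86, 8.78 and 8.90 CPM against at most 0.871 CPM (4.33, SE 0.20, adjusted p = 1.04e-14). Neither gene's wells overlapped with DMSO at any dose of homoharringtonine. SNAI1 was at 138, 146 and 171 CPM at 100 nM, at 221, 173 and 141 CPM at 1000 nM and at 106, 102 and 86.1 CPM at 10000 nM, with log2 fold changes of 3.56, 3.73 and 2.77 (SE 0.12 to 0.13). ZSWIM4 was at 37.0 to 51.9 CPM at 100 nM and 52.97 to 77.5 CPM at 1000 nM (3.13 and 3.63, SE 0.14 each). In SNAI1 and ZSWIM4 every homoharringtonine well was also above both wells at 100 nM triptolide, whereas in CSRNP2 and SHISA2 every homoharringtonine well was below them.

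Other members moved less, or down. CPT2 rose at every dose, with log2 fold changes of 1.43, 1.45 and 1.46 (SE 0.08 to 0.09), whereas EHHADH was at -1.02, -0.51 and -0.31 and passed both limits only at 100 nM, where leaving out well 3 ended the call (-0.90). MLYCD rose at 100 nM only (1.31, SE 0.14). The 3 enzymes that shared a pattern under triptolide thus did not share one under homoharringtonine, although the differences between their fold changes were not tested. HOXB6 fell at all 3 doses, with log2 fold changes of -3.22, -2.23 and -2.26 (SE 0.22 to 0.24), from 2.21 to 4.42 CPM in DMSO to between 0.229 and 0.882 CPM in the 9 wells. FAM120C and COL20A1 fell at 10000 nM (-1.20, SE 0.15, and -1.02, SE 0.31), and the latter call ended without well 2 (-0.94) or well 3 (-0.92). The 7 members not called at any dose were ACER2, C2orf76, FBXO48, KDM4D, NUTM2B, PAQR8 and PTAFR. PAQR8 was called higher at 100 nM with RLE size factors, DESeq2 or all 18 DMSO wells (1.03 each). FBXO48 was called higher at 10000 nM with the replicate block (1.42). ENSG00000256349 was called higher at 10000 nM from wells at 0.647, 1.96 and 0.901 CPM, a call that ended without well 2 (adjusted p = 0.0503).

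**Figure D5:**
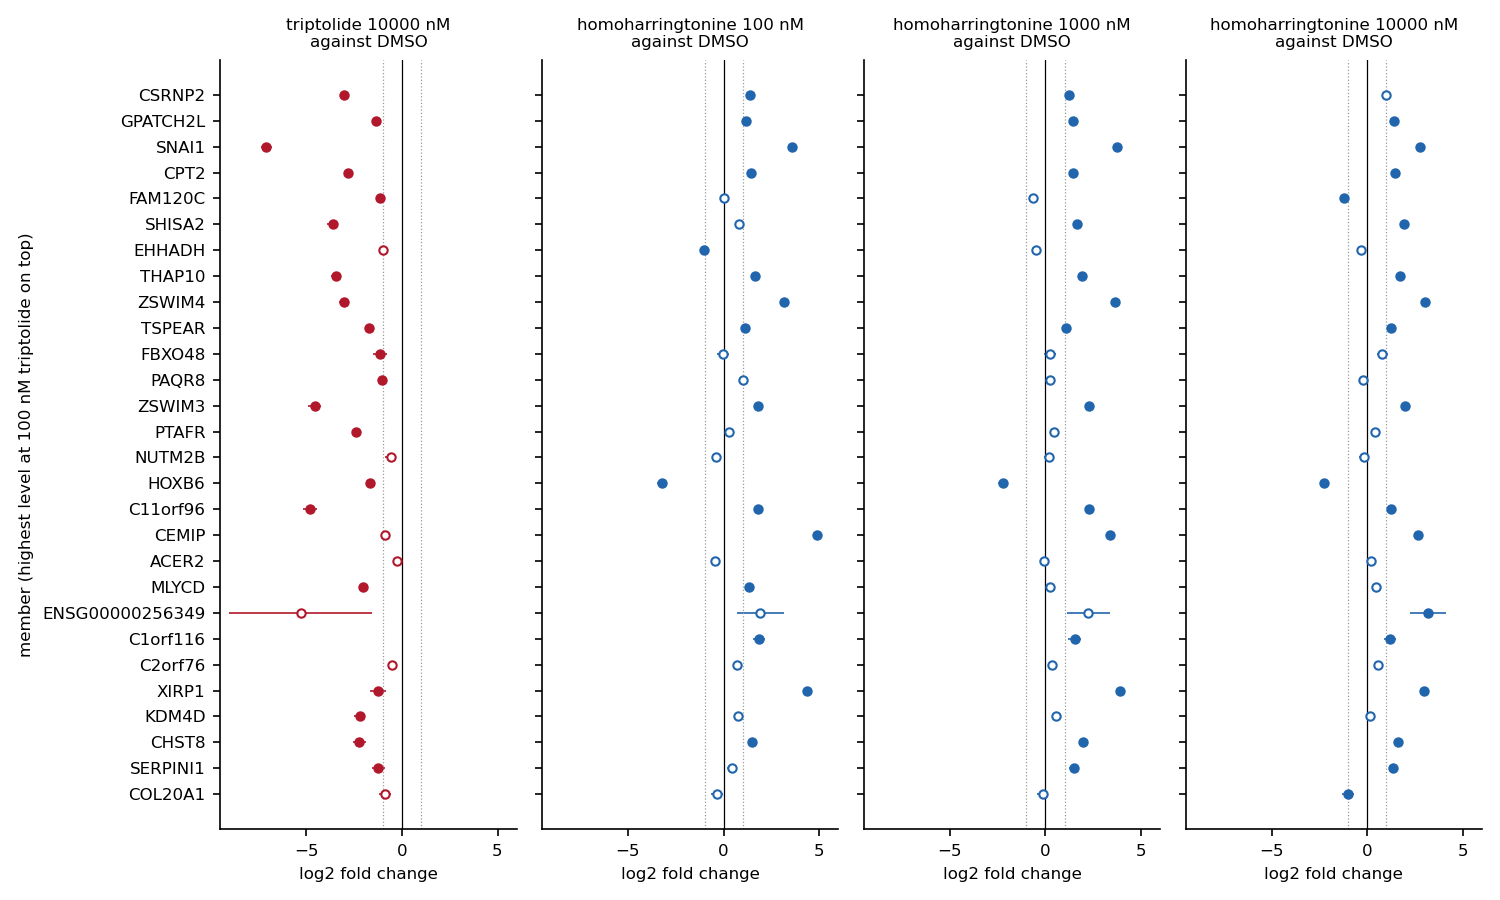
Log2 fold change against 17 DMSO wells with its standard error (bars) for 28 members in 4 comparisons with 3 treated wells each. Filled points passed the adjusted p and the fold limit (dotted lines at -1 and 1), open points did not. C1orf116 was not tested at 10000 nM triptolide, where 20 of 27 points are filled and lie left of -1.

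The direct comparison of triptolide with homoharringtonine at 10000 nM used no well that had entered the limits. The limit at 1000 nM triptolide still favours low levels with this compound, so the counts are not independent of the choice. Members near 0 with triptolide, such as SNAI1 and ENSG00000256349, passed the filter on low counts only through the homoharringtonine wells. A call of higher was thus not open to them. Of 29 members, 21 were lower with triptolide and none higher, where 37.9% and 30.2% of all 17679 genes tested were called lower and higher. The median log2 fold change was -2.75 over the members and -0.17 over all genes. CSRNP2 had a log2 fold change of -3.93 (SE 0.09, adjusted p = 2.56e-11), CPT2 was at -4.17 (SE 0.12) and THAP10 at -5.05 (SE 0.26). SNAI1, ZSWIM3, C11orf96, ZSWIM4 and SHISA2 had the largest fitted differences, from -9.77 to -5.44, and ENSG00000256349 was called with no count in any of the 3 triptolide wells. Of the 8 members not called, HOXB6 (0.69, SE 0.33), COL20A1 (0.21, SE 0.29) and FAM120C (0.15, SE 0.15) had estimates above 0, and without well 2 of both groups HOXB6 was called higher (1.01, adjusted p = 0.0288). The sign of these 3 depended on the scale. With libraries scaled to the mitochondrial mRNAs they were called lower, at -1.86, -2.37 and -2.44, as were all 29 members. That scaling moved the median of all genes by -2.58.

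Between 100 nM and 10000 nM homoharringtonine, slopes were called in about as large a share of the members as of all genes, and the counts are no result about the members. The slope on log10 dose passed an adjusted p of 0.05 upward in 4 of 29 members and downward in 8, against 21.1% and 22.9% of all 18315 genes tested. SHISA2 was at 2.13, 2.83 and 1.98 CPM at 100 nM, at 4.30, 4.32 and 3.99 CPM at 1000 nM and at 5.71, 5.76 and 4.99 CPM at 10000 nM, a slope of 0.52 log2 units per 10-fold dose (SE 0.09, adjusted p = 0.00132). CEMIP declined most, with a slope of -1.14 (SE 0.11, adjusted p = 2.83e-05), to 15.2, 15.96 and 13.01 CPM at 10000 nM, followed by XIRP1 (-0.71, SE 0.09), FAM120C (-0.64, SE 0.10) and PAQR8 (-0.63, SE 0.11). The calls of EHHADH, ACER2, CSRNP2, SNAI1, MLYCD and KDM4D ended when well 2 or when well 3 of each dose was left out, which left 2 upward and 4 downward. With libraries scaled to the mitochondrial mRNAs no upward slope was called, SHISA2 being at 0.44 (adjusted p = 0.0621).

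The other 4 compounds hardly moved the members. Over their 12 comparisons with DMSO, 0.475% of gene tests were called higher and 0.303% lower, and 5 calls fell on members, all of them with nilotinib. CEMIP rose at 100 nM, 1000 nM and 10000 nM nilotinib, by 1.27 (SE 0.19, adjusted p = 0.000182), 1.06 (SE 0.20, adjusted p = 0.00169) and 1.44 (SE 0.19, adjusted p = 7.06e-06) on the log2 scale, where 0.708%, 0.762% and 2.43% of genes were called higher. Its means were 5.46, 4.71 and 6.46 CPM against 2.38 CPM in DMSO, and the wells at 1000 nM overlapped with DMSO. XIRP1 rose at 10000 nM to 2.19 ± 0.602 CPM (SD, n = 3) from 0.509 ± 0.179 CPM (SD, n = 17), a log2 fold change of 2.12 (SE 0.25, adjusted p = 1.54e-06). C1orf116 fell at that dose (-2.39, SE 0.63, adjusted p = 0.0102), where 0.752% of genes were called lower, between levels of 0.192 and 0.0334 CPM that are a few counts per library, and this call ended without well 1 or well 3 of the compound or with all 18 DMSO wells.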

How the data were processed

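Wells were grouped by the compound, dose and replicate number of the sample labels. Per the labels and the submitters' processing notes, the authors made TruSeq Stranded mRNA libraries and ran RSEM on GRCh38, and those notes also list HTSeq and DESeq2. Versions of RSEM and of its annotation were not given in the sources used here. The expected counts the authors deposited estimate the reads of each gene, without normalization, and the deposited TPM values are the authors' RSEM values per transcript length and per library. The mean transcript length that the authors' files print beside each gene was used to compare lengths between wells. FPKM values were not used. Where the study's methods and the labels differ on the middle dose (1 nM in the former), the labels' 1000 nM was used. Names and positions came from GENCODE 44, which held 56104 of 60371 identifiers. Promoter sequences were from RefSeq (GRCh38.p14).

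CPM is the expected count over the library sum. The members and gene lists were chosen with earlier results of these data known, and the lists of fatty acid oxidation genes and paralogs after the members were seen. Genes named in the text were those with the 8 highest levels at 100 nM, the 8 largest ratios at 100 nM, the 8 smallest at 1000 nM, the 6 largest fold changes among calls in each main comparison, members of a gene list, and genes next to a limit, and the other members were then named with their values, except 1 that is not reported here. After rounding, expected counts were fitted with edgeR 4.0.16 in R 4.3.3 (scaling by TMM, filterByExpr with a count of 10, glmQLFit, glmQLFTest), 2 groups per fit, with Benjamini-Hochberg adjustment over all genes tested. A call needed an adjusted p under 0.05 and a log2 fold change beyond 1 in either direction, and for slopes on log10 dose the adjusted p alone. The standard error is the fold change over the square root of F. DMSO replicate 10 and triptolide 100 nM well 2 were left out for their depth. Intervals and limits for counts of 0 (3 counts) cover counting error only. Python 3.11.15 with pandas 2.3.3 and scipy 1.17.1 was used for the rest. The scripts were tested on simulated counts. Alternatives were RLE size factors, no scaling factors, scaling to the 13 mitochondrial mRNAs, 2 other count filters, DESeq2 1.42.0, a replicate block, all 18 DMSO wells, and each treated well left out. For the limits they were TPM, TMM-scaled CPM, other wells and other thresholds. DRUG-seq libraries were not analysed here.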

Additional observations from a re-analysis of the deposited data

Results flagged for a closer look

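In the comparison of the compounds at 10000 nM, 21 of 29 members were lower with triptolide than with homoharringtonine by a test of the difference itself, and this difference between the compounds is why the result is listed here. Of all genes tested, 37.9% were lower. THAP10 was at 0.478, 0.125 and 0.203 CPM with triptolide and at 13.8, 12.8 and 12.99 CPM with homoharringtonine, with 3.28 to 5.22 CPM in the DMSO wells between them.

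Triptolide 100 nM well 2 was left out of the limits and of every comparison for its 70767 counts. The members' summed level in it was 876 CPM from 62 counts (exact 95% interval 672 to 1123 CPM), above the 214 to 248 CPM of the 17 DMSO wells, with 836 and 854 CPM in the other 2 wells at that dose. The other well left out for its depth, DMSO replicate 10, was at 324 CPM from 149 counts (exact 95% interval 274 to 380 CPM), above the other DMSO wells and below all 3 wells at 100 nM triptolide. CSRNP2 supplied 11 of the 62 counts, and 20 of 29 members were counted in that well. The sum is thus weighted to the most abundant members and says little of the low ones.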

How the results depend on the processing

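Of 161 alternative counts of calls or of genes taken, 137 were within 1.5 times of the reported one. The 21 members called lower at 10000 nM triptolide became 13, and the 21 lower than with homoharringtonine became 11, when 10 counts were required in every library, which leaves fewer genes to test and takes out those near 0. The 2 lower calls at 100 nM homoharringtonine became 1 with RLE size factors, that stricter filter, DESeq2, the replicate block or all 18 DMSO wells, and 1 to 2 with a well left out. The block on the replicate number, in which fits against DMSO used DMSO wells 1 to 3, moved no other count by over 1.5 times. The labels do not say that a number marks shared wells, and deviations of same-numbered wells correlated at -0.207 to 0.148 over genes. For slopes over homoharringtonine, the 4 upward became 0 and the 8 downward 5 with scaling to mitochondrial mRNAs, and the downward became 4 without scaling factors. With a well left out, upward slopes were 2 to 6, downward 4 to 7, members higher with triptolide than with homoharringtonine 0 to 1, and lower calls with the other 4 compounds 0 to 1. The latter were 4 with mitochondrial scaling and 0 with the stricter filter or all 18 DMSO wells. The cause was not tested except for the filter. The limits took 18 genes with TPM, 14 with a minimum of 10 CPM and 92 with all 3 wells at 100 nM, where 1 count in well 2 is worth 14.1 CPM. Of the 92 genes, 20 were members. Without well 1 or well 3 at 100 nM they took 27 and 32 genes, 25 of them members each time. With 2 usable wells at 100 nM and 21 members under 5 CPM in DMSO, depth limits what can be said of single low members.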
